A study of Mus musculus with 52 samples.

Results

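Malat1, Neat1, Gas5, Snhg1, Snhg5, and Snhg12 are long noncoding RNA genes whose start sites carry histone H3 Lys4 (H3K4) methylation in mouse embryonic fibroblasts (MEFs). They are 6 of the 23043 genes measured and were taken by symbol, each with its longest transcript, together with the peaks over them and within 5 kb. ChIP-seq of H3K4me1, H3K4me2, and H3K4me3 was available in 3 FC/FC and 3 F/F libraries per mark, 18 libraries in all. FC/FC cells are immortalized (3T3) MEFs that carry loxP sites in each MLL2 allele and were exposed to 1 µM hydroxy-tamoxifen for 24 h, which excises exons 3-5 of MLL2, before 6 further days of growth. F/F cells are the same floxed MEFs, for which the labels list no tamoxifen. The deletion and the exposure to tamoxifen therefore cannot be told apart in these libraries, and the labels do not say whether more than 1 line was used. The question was whether loss of MLL2, an H3K4 methyltransferase now named KMT2D, was accompanied by altered H3K4 methylation over these genes.

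H3K4me3 is typical of active promoters, H3K4me2 of promoters and their surroundings, and H3K4me1 of enhancers and the flanks of promoters. MLL2 is best known for H3K4me1 at enhancers. Malat1 RNA is retained in nuclear speckles, whereas Neat1 RNA is the scaffold of paraspeckles, which only its long isoform can build. Gas5, Snhg1, Snhg5, and Snhg12 are host genes whose introns release small nucleolar RNAs (snoRNAs), guides for the chemical modification of ribosomal RNA and other RNAs. Many snoRNA hosts start with a run of pyrimidines, the 5′ terminal oligopyrimidine tract that is typical of ribosomal protein genes.

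Summed over all transcript windows, each library held between 26714377 and 49990775 reads. Overlapping windows count a read more than once and reads outside them are left out, so these totals are not sequencing depths. Of 10 fibroblast marker genes, 8 had H3K4me3 above 1 RPKM in every library. The exceptions were Thy1, with means of 0.267 RPKM in FC/FC cells and 0.294 RPKM in F/F cells, and Col3a1, with 1.06 and 0.904 RPKM. All 6 markers each of epithelial, haematopoietic, endothelial, and neural cells stayed below 1 RPKM in every library. Of these markers, Cdh1, an epithelial cadherin, was the only gene called for any mark, with H3K4me2 lower in FC/FC cells (log2 fold change -0.49 ± 0.07; limma adjusted p = 0.0328), and its part in the results was not tested. Without H3K4me2 FC/FC replicate 1, Cdh1 was again called lower (-0.55 ± 0.06; adjusted p = 0.0039), with 1 haematopoietic marker lower and 3 fibroblast markers higher. Kmt2d itself had H3K4me3 of 2.79 ± 0.129 RPKM in FC/FC cells and 2.63 ± 0.192 RPKM in F/F cells, but this window covers the whole gene and does not resolve the deleted exons, so it does not check the deletion. The library labelled H3K4me2 FC/FC replicate 1 lists the catalogue number of the H3K4me1 antibody. Its profile ranked with the other H3K4me2 libraries (Spearman 0.99 in all 5 pairs) rather than with those of H3K4me1 (0.822 to 0.857). It held the fewest reads over transcripts of the H3K4me2 libraries, 31514831. The H3K4me2 tests and balances are therefore given with and without it.

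In mm10, Malat1 spans chr19:5795690-5802671 and Neat1 chr19:5824710-5845478, both on the minus strand, so that Neat1 lies upstream of Malat1 and is transcribed toward it. Snhg1 is on the same chromosome at chr19:8723487-8726326 (plus strand). Gas5 spans chr1:161035166-161038537 and Snhg12 chr4:132308678-132311024, both on the plus strand, and Snhg5 spans chr9:88521053-88522897 on the minus strand.

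The promoters of 5 of the 6 genes were matched by symbol in RefSeq (GRCm38.p6, the assembly of mm10), and 110 bases of each are shown because H3K4me2 and H3K4me3 peaks lay over every one of these start sites in all 12 libraries of those marks. Each runs 5′ to 3′ on the strand of the gene, from 60 bases before the start to 50 bases from it. Capitals mark TATAAA or TATATA, searched on the gene's strand between 45 and 11 bases before the start, and any run of at least 6 C or T letters within 15 bases of the start. The windows are chr19:5802623-5802732 (Malat1, minus strand), chr1:161035106-161035215 (Gas5, plus), chr19:8723427-8723536 (Snhg1, plus), chr9:88522848-88522957 (Snhg5, minus), and chr4:132308618-132308727 (Snhg12, plus).
Malat1: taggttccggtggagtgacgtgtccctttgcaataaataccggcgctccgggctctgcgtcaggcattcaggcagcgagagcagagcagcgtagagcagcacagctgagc
Gas5: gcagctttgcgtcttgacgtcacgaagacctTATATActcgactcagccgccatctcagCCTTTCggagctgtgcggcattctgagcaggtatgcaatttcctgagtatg
Snhg1: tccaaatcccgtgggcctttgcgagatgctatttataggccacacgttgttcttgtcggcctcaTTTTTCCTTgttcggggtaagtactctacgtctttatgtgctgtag
Snhg5: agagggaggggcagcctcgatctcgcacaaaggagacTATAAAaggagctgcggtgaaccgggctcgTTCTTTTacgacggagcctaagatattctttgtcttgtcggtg
Snhg12: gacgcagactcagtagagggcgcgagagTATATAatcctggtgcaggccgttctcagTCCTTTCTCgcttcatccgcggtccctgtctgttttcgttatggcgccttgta

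All 4 snoRNA hosts, and not Malat1, held such a C and T run at the start, as did 29.2% of the 32851 promoters in the table. Gas5, Snhg5, and Snhg12 also held TATAAA or TATATA, as did 3.08% of all promoters, and 1.02% of all promoters held both features. These letters were chosen after the sequences had been seen and describe them only. The 300-base promoters held between 10 (Malat1) and 36 (Snhg5) CG pairs, against a median of 7 over all promoters.

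The 6 genes ranked high among all genes for H3K4me3. RPKM is the reads over the transcript and 500 bp on each side, scaled by that length and by the library's total reads over transcripts. By this measure the 6 genes lay above at least 96.4% of genes in both FC/FC and F/F cells. Malat1 had the highest H3K4me3 of the 6, at 45.8 ± 3.60 RPKM in FC/FC cells and 46.3 ± 4.48 RPKM in F/F cells (SD, n = 3 each). Gas5, Snhg1, and Snhg5 followed with means of 34.8, 29.3, and 25.9 RPKM in FC/FC cells and 36.7, 31.0, and 27.7 RPKM in F/F cells, and the libraries of neighbours in this order overlapped. Snhg12 was lower, at 19.2 ± 1.09 RPKM in FC/FC cells and 20.3 ± 1.499 RPKM in F/F cells, with no overlap with Snhg5 or with Neat1 in either group. Neat1 came last, at 13.2 ± 0.0792 RPKM in FC/FC cells and 13.05 ± 0.366 RPKM in F/F cells, measured over a long transcript of 20769 bp. All 6 lay far above the median of all genes, 0.448 RPKM in FC/FC cells and 0.452 RPKM in F/F cells.

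For H3K4me2, Malat1 again led, at 17.7 ± 0.869 RPKM in FC/FC cells and 16.5 ± 0.443 RPKM in F/F cells, but its range touched that of the next gene in both groups. The means of Gas5, Snhg1, and Snhg5 lay between 15.2 and 16.8 RPKM in FC/FC cells and between 13.6 and 14.9 RPKM in F/F cells. Snhg12 stood below them without overlap, at 10.2 ± 0.395 RPKM in FC/FC cells and 9.18 ± 0.0991 RPKM in F/F cells. Neat1 was lower again, at 7.18 ± 0.0750 RPKM in FC/FC cells and 6.95 ± 0.306 RPKM in F/F cells.

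For H3K4me1 the order was different. Neat1 led, at 2.39 ± 0.10 RPKM in FC/FC cells and 2.49 ± 0.0349 RPKM in F/F cells, and did not overlap with the next gene, Snhg1, in either group, although in FC/FC cells the highest Snhg12 library (2.33 RPKM) lay above the lowest Neat1 library (2.31 RPKM). Malat1, highest for H3K4me3, lay beside Gas5 at the low end for H3K4me1, at 1.39 ± 0.0907 RPKM in FC/FC cells and 1.39 ± 0.0429 RPKM in F/F cells, and overlapped with it in both groups. These levels rest on fewer reads, 115 to 403 per library for the 5 genes other than Neat1, against 1998 to 18266 for H3K4me3 over all 6 genes.

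**Figure D1:**
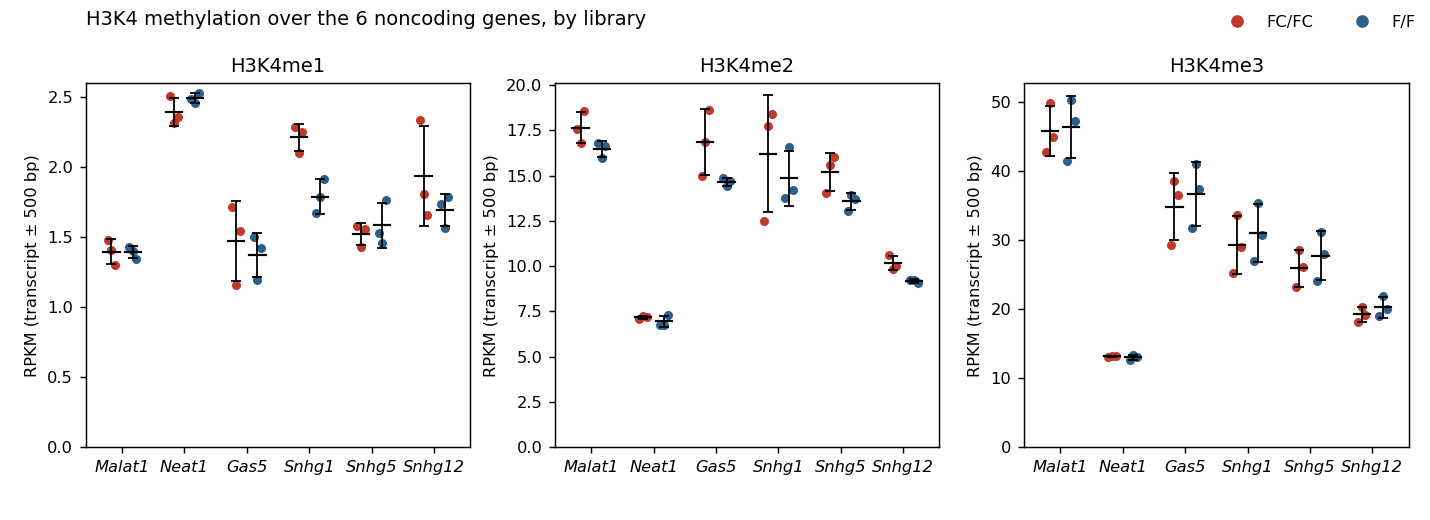
RPKM of H3K4me1, H3K4me2, and H3K4me3 over each gene, with 1 point per library (red, FC/FC; blue, F/F), the mean as a line, and the SD as bars (n = 3 libraries per group). Malat1 is highest for H3K4me3, near 46 RPKM in both groups, and Neat1, taken over its long transcript, is lowest for H3K4me3 and highest for H3K4me1.

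The peak lists show where along the genes this methylation lay. A peak in these lists is a region called by MACS in 1 library against an H3 library, and the promoter peak is the one that overlaps the start site. Every promoter peak of H3K4me2 and H3K4me3 had the score 3100, so their scores give no order. The H3K4me3 promoter peak of Neat1 measured 11390, 12676, and 12682 bp in the 3 FC/FC libraries and 12004, 12549, and 12660 bp in the 3 F/F libraries. That of Malat1 measured 10683, 10669, and 11290 bp in FC/FC and 10814, 11659, and 11224 bp in F/F. These peaks were wider than those of 99.8% (Neat1) and 99.7% (Malat1) of the 11548 genes with an H3K4me3 promoter peak in every library. In both groups the peak of Malat1 ran past the end of the 6982-bp gene, to between 8103 and 8926 bp from the start in FC/FC and between 8159 and 8935 bp in F/F.

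The host genes had narrower H3K4me3 promoter peaks. Gas5 averaged 5909 ± 609 bp in FC/FC and 5885 ± 593 bp in F/F, and Snhg1 averaged 5326 ± 902 bp in FC/FC and 5403 ± 837 bp in F/F. Both were wider than at least 94.7% of the genes compared. The peak ran past the end of Gas5 in 3 of 3 FC/FC and 2 of 3 F/F libraries, and past the end of Snhg1 in 2 of 3 libraries of each group. Snhg5 averaged 3623 ± 333 bp in FC/FC and 3706 ± 238 bp in F/F. Snhg12 was close to the median of all genes (2823 bp in FC/FC and 2862 bp in F/F), at 2708 ± 252 bp in FC/FC and 2954 ± 165 bp in F/F. The peaks were also placed unevenly around the start. That of Snhg12 reached 413 to 620 bp upstream and 2033 to 2328 bp downstream in FC/FC, and 475 to 693 bp upstream and 2245 to 2443 bp downstream in F/F, whereas that of Gas5 reached 1969 to 2157 bp upstream in FC/FC and 1998 to 2182 bp upstream in F/F.

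The upstream sides hold other genes in some cases. Slc3a2, the heavy chain of an amino acid transporter, starts 118 bp from Snhg1 in the opposite direction, so the RPKM windows and the promoter peak of Snhg1 are shared with it. Zbtb37 starts 907 bp from Gas5, also divergently, under the same H3K4me2 and H3K4me3 promoter peaks. Rab42 starts 5322 bp upstream of Snhg12, and a separate peak there was called in all 6 H3K4me2 libraries and in 3 of 3 FC/FC and 2 of 3 F/F H3K4me3 libraries. Malat1, Neat1, and Snhg5 had no other gene starting nearer than 25123 bp.

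H3K4me1 was arranged the other way round, beside a start left empty. No H3K4me1 peak overlapped the start site of Neat1, Gas5, Snhg1, Snhg5, or Snhg12 in any library, and the only one over the Malat1 start reached 13 bp past it, in FC/FC replicate 3. At Malat1 the gap between the upstream and the downstream H3K4me1 peak measured 6350 and 6417 bp in the other 2 FC/FC libraries and 6157 to 6537 bp in the F/F libraries, close to the length of the gene. At Neat1 the gap was 3013 to 4356 bp in FC/FC and 3210 to 4048 bp in F/F. At Gas5 it was 2418 to 3168 bp in FC/FC and 3328 to 3735 bp in F/F, without overlap. The share of all genes with such a separated gap was not counted, and this difference was not tested. Snhg5 and Snhg12 had H3K4me1 peaks on the downstream side only, which at Snhg12 began 1002 to 1059 bp from the start in FC/FC and 941 to 1394 bp from it in F/F. Upstream of Malat1, toward Neat1, a single H3K4me1 peak of 17862 bp in FC/FC replicate 3 and of 16327 to 17473 bp in the F/F libraries lay between the genes, and in FC/FC replicates 1 and 2 the same stretch was called as 2 adjoining peaks.

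**Figure D2:**
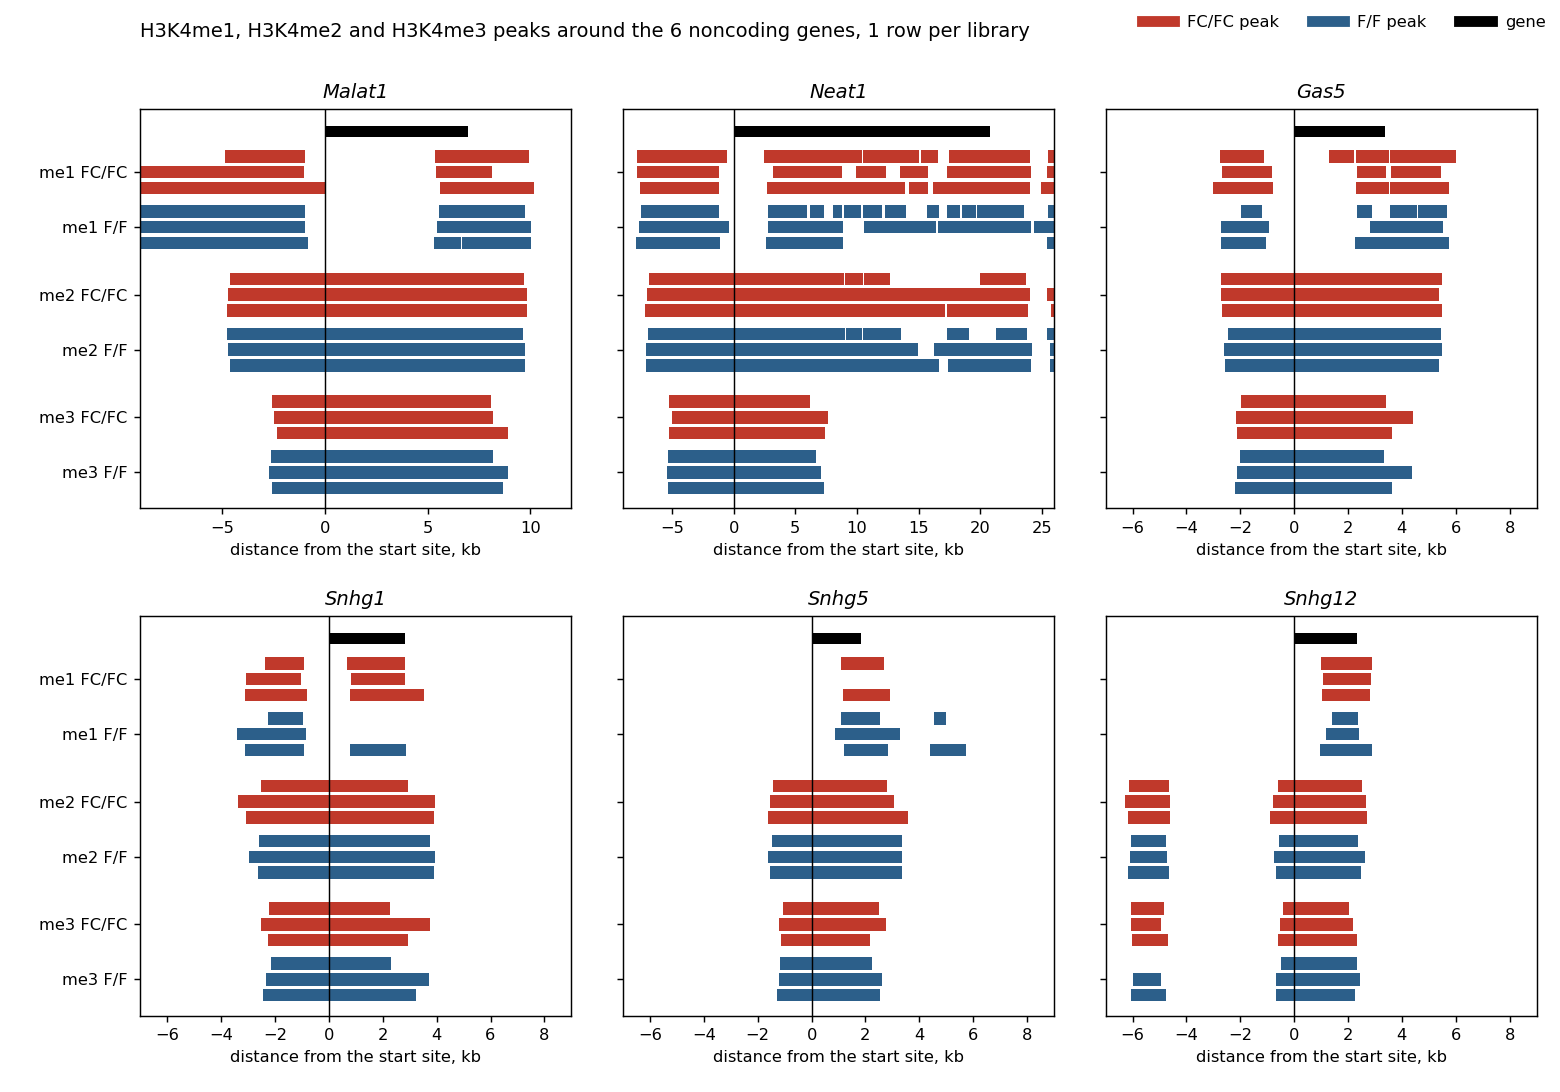
Peaks within 5 kb of each gene by distance from its start site in kb, downstream to the right, with 1 row per library (red, FC/FC; blue, F/F) and the gene in black; peaks that run beyond the axis are cut off there. H3K4me2 and H3K4me3 peaks span every start site, whereas H3K4me1 peaks lie beside it, at Snhg5 and Snhg12 on the downstream side only. The exception is 1 H3K4me1 peak that reaches 13 bp past the Malat1 start in FC/FC replicate 3.

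Nested rows of the tables gave the same picture in RPKM. Neat1 has a short transcript of 3185 bp, and its window could be subtracted from that of the long transcript, which was decided after the data had been seen. H3K4me3 over the first part averaged 61.2 ± 1.09 RPKM in FC/FC cells and 60.8 ± 0.648 RPKM in F/F cells, more than Malat1. Over the remaining 17586 bp it averaged 1.74 ± 0.354 RPKM in FC/FC cells and 1.68 ± 0.379 RPKM in F/F cells. H3K4me1 lay the other way, at 1.24 ± 0.122 RPKM over the first part and 2.66 ± 0.108 RPKM over the remainder in FC/FC cells, against 1.36 ± 0.0576 and 2.76 ± 0.0504 RPKM in F/F cells. Thus in both groups H3K4me3 was concentrated over the part that both isoforms share, and H3K4me1 was higher over the part that only the long, paraspeckle-building isoform transcribes.

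Inside Snhg12, 4 snoRNA rows divide the gene: Snora16a (centre 854 bp from the start), Snora44 (1333 bp), Snora61 (1659 bp), and Snord99 (2052 bp). Their windows, of 500 bp on each side, overlap. H3K4me3 averaged 43.1, 20.1, 8.83, and 3.11 RPKM over them in FC/FC cells and 44.98, 20.3, 9.34, and 3.43 RPKM in F/F cells. H3K4me1 averaged 1.22, 2.87, 3.87, and 3.81 RPKM in FC/FC cells and 1.05, 2.32, 3.26, and 3.35 RPKM in F/F cells. H3K4me3 was thus highest and H3K4me1 lowest over the first snoRNA in both groups. At the far ends of Gas5 (Snord47, 2958 bp from the start) and Snhg1 (Snord22, 2441 bp), H3K4me3 was 9.29 ± 4.96 and 4.00 ± 2.29 RPKM in FC/FC cells and 10.2 ± 6.92 and 4.22 ± 2.58 RPKM in F/F cells.

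**Figure D3:**
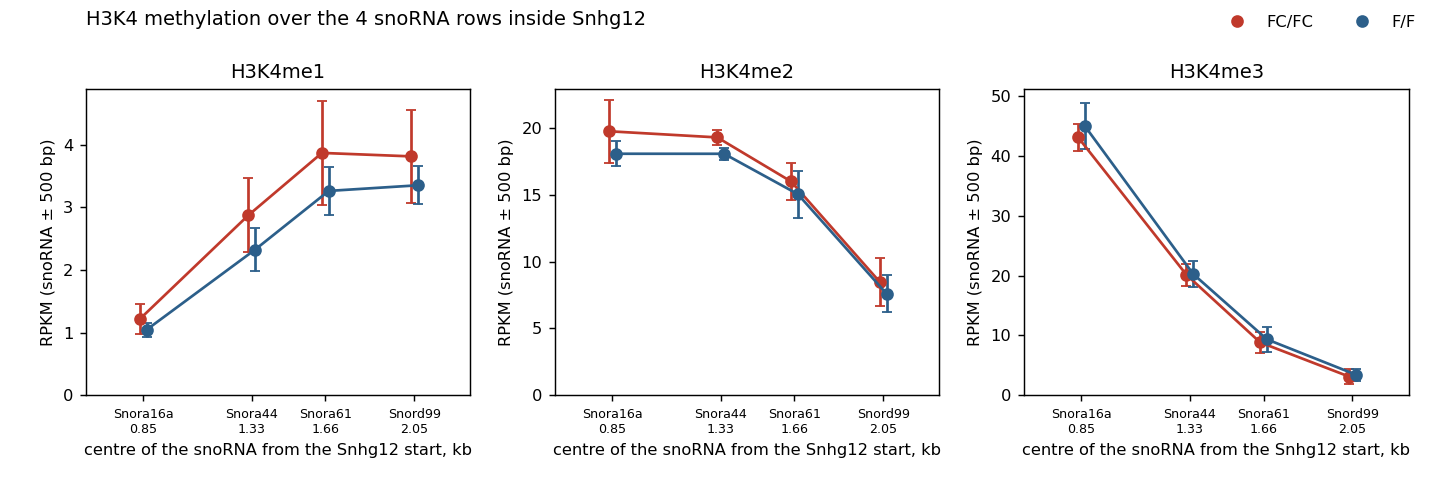
Mean RPKM (± SD, n = 3 libraries per group; red, FC/FC; blue, F/F) over the 4 snoRNA rows of Snhg12, placed by the distance of their centres from the start site in kb. H3K4me3 declines along the gene from over 43 to under 4 RPKM, and H3K4me1 is lowest at the first snoRNA.

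FC/FC and F/F cells were then compared for each mark with limma on log2(RPKM + 0.1), a scale on which the fold change of a gene with low RPKM is understated. Adjusted p-values are those of Benjamini and Hochberg across every gene tested for a mark. The libraries are biological replicates according to the study's methods. None of the 6 genes passed an adjusted p of 0.05 for any of the 3 marks. Over all genes, limma called 0 of 8567 for H3K4me1 (0%), 214 of 9986 for H3K4me2 (2.14%), and 0 of 9073 for H3K4me3 (0%). At an unadjusted p under 0.05 it gave 1, 3, and 0 of the 6 genes for H3K4me1, H3K4me2, and H3K4me3, where it gave 2144 (25%), 2900 (29%), and 338 (3.73%) of all genes. With limma-voom on recovered reads, 730 (8.52%), 360 (3.61%), and 0 (0%) of all genes were called, and none of the 6.

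H3K4me3 over the 6 genes overlapped between the groups. Gas5 had 29.3, 38.6, and 36.6 RPKM in FC/FC and 31.7, 40.9, and 37.4 RPKM in F/F. Snhg1 had 25.3, 33.6, and 29.0 RPKM in FC/FC and 26.9, 35.3, and 30.7 RPKM in F/F. In both groups replicate 1 was lowest and replicate 2 highest, and the groups overlapped. Snhg5 (23.1, 28.5, and 26.1 RPKM in FC/FC; 24.05, 31.1, and 28.0 RPKM in F/F), Snhg12 (18.1, 20.3, and 19.2 RPKM in FC/FC; 18.9, 21.9, and 19.96 RPKM in F/F), and Malat1 (42.7, 49.8, and 44.9 RPKM in FC/FC; 41.4, 50.3, and 47.2 RPKM in F/F) had the same lowest and highest libraries. Neat1 was narrower, at 13.1, 13.2, and 13.2 RPKM in FC/FC and 12.7, 13.4, and 13.1 RPKM in F/F.

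The log2 fold changes of H3K4me3 ran from -0.09 ± 0.11 (SE) for Snhg5 to 0.01 ± 0.05 for Neat1, with adjusted p between 0.99 and 0.992 by limma. They were positive for 1 of the 6 genes, against 57.8% of all genes, and the negative ones took in all 4 snoRNA hosts. The median was -0.08, against 0.01 over all genes tested. The groups overlapped for all 6 genes, whereas 7.27% of all genes had none. Leaving out a single library turned the direction for Gas5, Snhg1, and Malat1, to 0.04, 0.02, and 0.03 without FC/FC replicate 1. The same genes also turned positive without F/F replicate 2, Malat1 to 0.047. Neat1 turned to -0.01 without F/F replicate 1. With FC/FC and F/F libraries matched in numerical order, which the labels do not state as pairs, the difference was negative in 3 of 3 pairs for each of Gas5, Snhg1, Snhg5, and Snhg12, for example -0.09, -0.07, and -0.08 for Snhg1. The share of all genes negative in 3 of 3 pairs was not counted. For H3K4me3 the deviations of FC/FC and F/F replicate 3 did not go together (correlation -0.219). The fit with these pairs did not call any of the 4 hosts (limma adjusted p from 0.519 for Snhg5 to 0.611 for Snhg12).

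For H3K4me2, all 6 genes had higher means in FC/FC cells, as did 75% of all genes tested, although Neat1 turned to -0.01 when libraries were centred on their medians. Gas5 had 15.002, 16.9, and 18.6 RPKM in FC/FC and 14.9, 14.4, and 14.7 RPKM in F/F. Snhg5 had 14.04, 15.6, and 16.04 RPKM in FC/FC and 13.1, 13.9, and 13.7 RPKM in F/F. Snhg12 had 10.6, 9.86, and 10.01 RPKM in FC/FC and 9.26, 9.21, and 9.07 RPKM in F/F. In these 3 hosts every FC/FC library lay above every F/F library, a separation that 27.2% of all genes showed. The fold changes were 0.19 ± 0.08 for Gas5, 0.16 ± 0.06 for Snhg5, and 0.14 ± 0.04 for Snhg12 (log2 ± SE), with limma adjusted p of 0.156, 0.141, and 0.105.

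Snhg1 had 12.5, 17.8, and 18.4 RPKM of H3K4me2 in FC/FC and 13.8, 16.6, and 14.2 RPKM in F/F. FC/FC replicate 1 was the lowest of the 6 libraries, and the other 2 FC/FC libraries lay above every F/F library. Malat1 (17.6, 16.8, and 18.6 RPKM in FC/FC; 16.8, 15.99, and 16.7 RPKM in F/F) and Neat1 (7.10, 7.25, and 7.20 RPKM in FC/FC; 6.77, 6.77, and 7.30 RPKM in F/F) overlapped as well. Their log2 fold changes of 0.10 ± 0.05 for Malat1 and 0.05 ± 0.05 for Neat1 sat beside a median of 0.07 over all genes, and 0.11 ± 0.15 for Snhg1 was no larger than its error.

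The H3K4me2 result turned on the library with the doubtful antibody label. Without H3K4me2 FC/FC replicate 1, Gas5 rose by 0.27 ± 0.05 (log2 ± SE; limma adjusted p = 0.0131), Snhg1 by 0.29 ± 0.08 (adjusted p = 0.0287), and Snhg5 by 0.22 ± 0.05 (adjusted p = 0.0156). Snhg12 (adjusted p = 0.0699), Malat1 (0.185), and Neat1 (0.402) did not pass. Thus 3 of the 6 genes were called higher, where 21.3% of all genes were called higher and 29.9% in either direction. Leaving out any other H3K4me2 library called none of the 6. For H3K4me2 the deviations of FC/FC replicate 1 went with those of F/F replicates 1 and 3 (correlation 0.595 and 0.544). They went against those of F/F replicate 2 (-0.797). The deviations of FC/FC replicates 2 and 3 went with those of F/F replicate 2 (0.71 and 0.699). The part of this split between libraries in the calls was not tested.

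For H3K4me1, Snhg1 stood apart from the others. It had 2.28, 2.10, and 2.24 RPKM in FC/FC and 1.67, 1.78, and 1.91 RPKM in F/F, so that every FC/FC library lay above every F/F library, as in 11.8% of all genes. The log2 fold change was 0.29 ± 0.06 (SE), which missed the threshold (limma adjusted p = 0.0704), and it stayed between 0.25 and 0.34 when any 1 library was left out. When FC/FC and F/F libraries were matched in numerical order as pairs, the same fold change passed (limma adjusted p = 0.0284), and 8.03% of all genes were then called higher. The downstream H3K4me1 peak inside Snhg1 was called in 3 of 3 FC/FC libraries, beginning 684 to 831 bp from the start. It was called in 1 of 3 F/F libraries, replicate 3, where it began 771 bp from the start. The share of all genes with such a split in peak calls was not counted. H3K4me1 peaks numbered 81444 to 120661 per F/F library and 89026 to 101157 per FC/FC library. The H3K4me1 libraries of FC/FC cells all held more reads over transcripts (31253262 to 38871331) than those of F/F cells (26714377 to 30528079). F/F replicate 3 held the most of its group. The part of these totals and of the peak numbers in the Snhg1 peak calls was not tested. Over the Snord22 window at the end of Snhg1, H3K4me1 averaged 3.42 ± 0.476 RPKM in FC/FC cells and 2.48 ± 0.423 RPKM in F/F cells, and the libraries of the groups did not overlap there. That window lies inside the window of Snhg1 and holds part of the same reads, so it is not a separate observation. The share of all such windows without overlap was not counted.

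The other 5 genes overlapped between the groups for H3K4me1. Snhg12 had 2.33, 1.81, and 1.65 RPKM in FC/FC and 1.73, 1.56, and 1.78 RPKM in F/F. FC/FC replicates 1 and 2 lay above every F/F library, and replicate 3 lay within the F/F range. Gas5 had 1.71, 1.16, and 1.54 RPKM in FC/FC and 1.498, 1.195, and 1.42 RPKM in F/F, with replicate 2 lowest in both groups. Snhg5, Malat1, and Neat1 had log2 fold changes of -0.05 ± 0.08, 0.004 ± 0.06, and -0.06 ± 0.05 (SE), each close to or within its error, and the limma adjusted p ran from 0.371 (Snhg12) to 0.975 (Malat1). The median over the 6 genes was 0.04, against -0.003 over all genes tested, and 4 of the 6 fold changes were positive, against 49% of all genes.

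**Figure D4:**
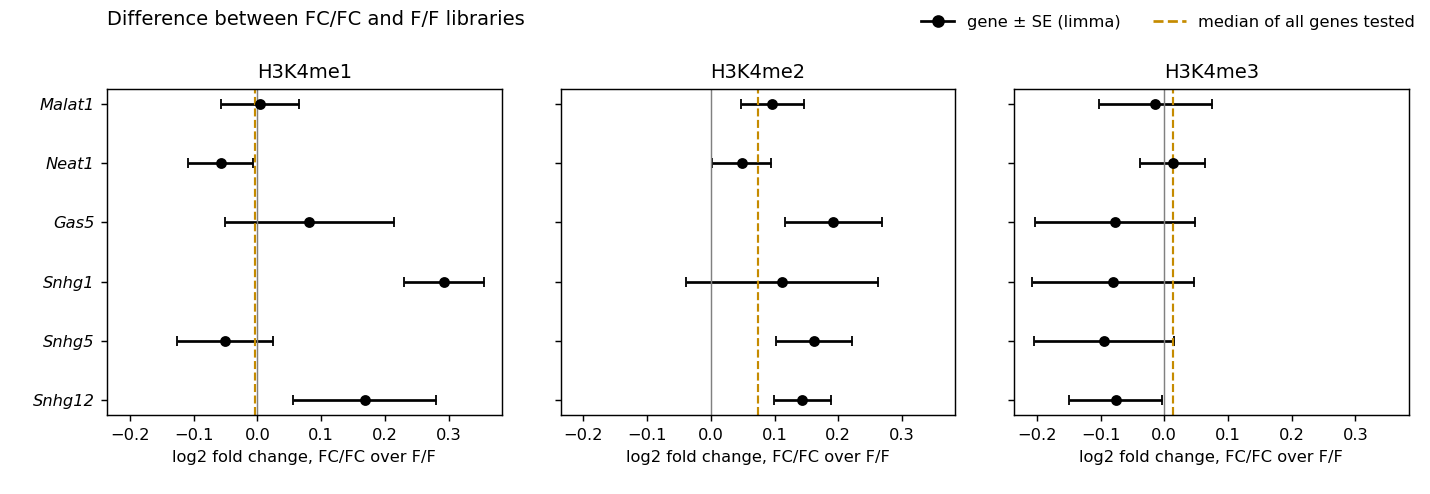
Log2 fold change of FC/FC over F/F for each gene and mark, with the limma SE as bars (3 libraries per group) and the median of all genes tested as a dashed line. Snhg1 has the highest value for H3K4me1, 0.29, and none of the 18 values passed an adjusted p of 0.05.

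The widths of the promoter peaks and the length covered by peaks within 5 kb were compared between groups of 3 libraries by exact permutation (two-sided), for which the smallest possible p is 0.1. The p-values printed for them are unadjusted. Adjusted by Benjamini and Hochberg over the comparisons of each measure, the smallest permutation p was 0.9 for widths and 0.9 for covered lengths. No width was separated between the groups in the 12 comparisons of H3K4me2 and H3K4me3, where 11.2% (H3K4me2) and 4.33% (H3K4me3) of all genes with such peaks were, and the smallest p was 0.2 by exact permutation. Without H3K4me2 FC/FC replicate 1, the H3K4me2 peaks of Malat1, Neat1, Snhg1, and Snhg12 were wider in FC/FC without overlap, as were 56.2% of all genes. The H3K4me2 peak of Neat1 varied most, with 15828, 31126, and 24320 bp in FC/FC and 16009, 22097, and 21369 bp in F/F, and where it was narrower a separate peak was called further downstream in the gene. That of Malat1 hardly varied, with 14324, 14536, and 14620 bp in FC/FC and 14461, 14481, and 14399 bp in F/F.

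Of the 18 comparisons of covered length, only Snhg5 for H3K4me1 was without overlap, where 14.4% (H3K4me1), 13.3% (H3K4me2), and 5.78% (H3K4me3) of all genes with a peak in at least 1 library were. Peaks covered 1599, 0, and 1729 bp in FC/FC and 1892, 2419, and 2958 bp in F/F (exact permutation p = 0.1, the smallest possible). A lower covered length without overlap was found in 7.74% of the same genes for H3K4me1. FC/FC replicate 2 had no H3K4me1 peak at Snhg5, although its RPKM of 1.43 was close to the 1.46 RPKM of F/F replicate 2, and the separation was lost with peaks of score 100 or more, with equal numbers of peaks, or within 2 kb. Snhg1 covered 3567, 4035, and 5047 bp in FC/FC and 1312, 2569, and 4304 bp in F/F for H3K4me1 (exact permutation p = 0.3).

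Some edges differed although widths did not, which was noticed after the data had been seen and was not tested. The H3K4me3 peak of Neat1 reached 5036 to 5265 bp upstream in FC/FC and 5349 to 5435 bp upstream in F/F, a shorter reach without overlap that 4.29% of genes showed. The H3K4me2 peak of Gas5 reached 2684 to 2721 bp upstream in FC/FC and 2441 to 2606 bp in F/F, a longer reach without overlap that 10.5% of genes showed, and without FC/FC replicate 1 it still reached 2684 and 2714 bp in FC/FC.

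Within a culture set, the libraries called against the same H3 library, the balance of 2 marks is the difference of their log2(RPKM + 0.1). The H3K4me3 to H3K4me1 balance was highest for Malat1, at 4.76, 5.05, and 5.01 in FC/FC sets and 4.77, 5.07, and 5.04 in F/F sets, and lowest for Neat1, at 2.34, 2.47, and 2.44 in FC/FC and 2.31, 2.40, and 2.33 in F/F. This order holds for the longest transcripts only. Over the short transcript of Neat1, H3K4me3 averaged 61.2 RPKM in FC/FC cells and 60.8 RPKM in F/F cells, above Malat1. H3K4me1 averaged 1.24 and 1.36 RPKM there, below Malat1. The median of 5856 genes was 1.34 in FC/FC sets and 1.35 in F/F sets. The balance was lower in FC/FC on average for 5 of the 6 genes and for 55.8% of all genes, furthest for Snhg1, by 0.37 (3.41, 3.94, and 3.64 in FC/FC; 3.93, 4.23, and 3.94 in F/F). All 6 overlapped between the groups, whereas 16.5% of all genes did not, and the smallest exact permutation p was 0.2.

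The H3K4me3 to H3K4me2 balance, added after the data had been seen, was lower in FC/FC on average for all 6 genes, as for 70.6% of 8474 genes. The differences were -0.27 for Gas5, -0.26 for Snhg5, -0.22 for Snhg12, -0.19 for Snhg1, -0.11 for Malat1, and -0.04 for Neat1, with a median of -0.21, against -0.06 over all genes. Snhg5 was the one gene without overlap, at 0.72, 0.87, and 0.70 in FC/FC sets and 0.88, 1.15, and 1.02 in F/F sets (exact permutation p = 0.1, the smallest possible). Adjusted by Benjamini and Hochberg over the 6 genes, this permutation p was 0.3. A lower balance without overlap was found in 19.6% of all genes, and with libraries centred on their medians Snhg5 overlapped as well. Without FC/FC replicate 1 the differences ran from -0.27 (Snhg1) to -0.04 (Neat1), against a median of -0.06 over all genes, and Snhg1 and Snhg5 were lower without overlap, as were 31.7% of all genes.

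**Figure D5:**
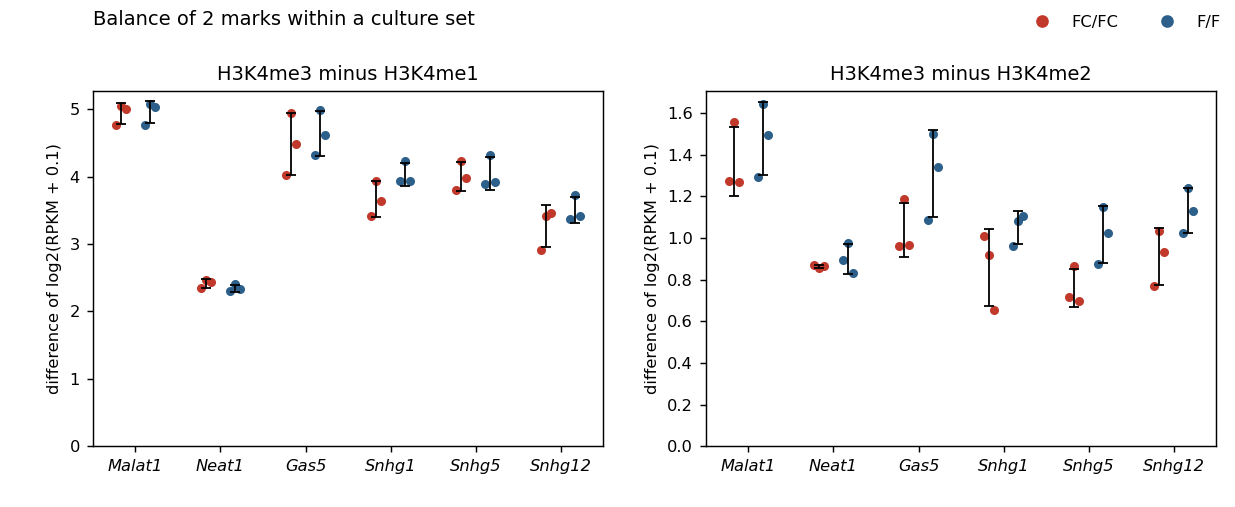
Difference of log2(RPKM + 0.1) between 2 marks in each culture set (points; red, FC/FC; blue, F/F), with the SD around the mean as bars (n = 3 sets per group). Over the longest transcripts, Malat1 has the highest balance of H3K4me3 to H3K4me1, near 5, and Snhg5 is the one gene whose groups are separated for H3K4me3 to H3K4me2.

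Related genes were taken from lists chosen with earlier results of these data known. Over all genes tested, log2 fold changes were positive for 49% (H3K4me1), 75% (H3K4me2), and 57.8% (H3K4me3), with medians of -0.003, 0.07, and 0.01. Of 16 other snoRNA-host noncoding genes, 13 were in the tables and 11 were tested, none was called for any mark, and the log2 fold changes were positive for 10 (H3K4me1), 11 (H3K4me2), and 3 (H3K4me3) of the 11, with medians of 0.15, 0.14, and -0.07. Among them, Snhg10 had the smallest p among higher genes for H3K4me1 (0.27 ± 0.06; limma adjusted p = 0.0683) and Dancr for H3K4me2 (0.19 ± 0.05; adjusted p = 0.0743). Among 18 protein genes that host snoRNAs, 14 of 15 tested were positive for H3K4me1, 17 of 17 for H3K4me2, and 5 of 17 for H3K4me3, with medians of 0.12, 0.15, and -0.04. The smallest p among higher genes was that of the chaperone gene Hspa8 for H3K4me2 (0.18 ± 0.04; limma adjusted p = 0.0792) and of the nucleolin gene Ncl for H3K4me3 (0.05 ± 0.10; adjusted p = 0.99), and none was called. No paraspeckle protein gene of 15 was called either, with 9 of 10 tested positive for H3K4me1, 15 of 15 for H3K4me2, and 9 of 15 for H3K4me3 (medians 0.13, 0.12, and 0.01) and Dazap1 nearest for H3K4me2 (0.16 ± 0.04; adjusted p = 0.0905). Of 20 other long noncoding genes, 7 to 11 were tested per mark and none was called, with Tug1, a nuclear long noncoding RNA, nearest for H3K4me1 (0.36 ± 0.07, limma adjusted p = 0.0702). Their log2 fold changes were positive for 7 of 11 (H3K4me1), 7 of 9 (H3K4me2), and 1 of 7 (H3K4me3). For H3K4me1, every FC/FC library lay above every F/F library in 3 of 11 noncoding hosts, 2 of 15 protein hosts, 0 of 10 paraspeckle genes, and 1 of 11 other noncoding genes. This separation was found in 11.8% of all genes. Without H3K4me2 FC/FC replicate 1, limma called 5 of 11 noncoding hosts, 12 of 17 protein hosts, 9 of 15 paraspeckle genes, and 2 of 9 other noncoding genes higher for H3K4me2, and 1 of those 9 lower, where 21.3% of all genes were called higher.

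The nearest genes were not called for any mark, although without H3K4me2 FC/FC replicate 1 Slc3a2 (0.17 ± 0.04; limma adjusted p = 0.0208) and Zfp949, the nearest to Snhg5 (0.17 ± 0.05; adjusted p = 0.0433), were called higher for H3K4me2. Slc3a2, which shares the promoter region of Snhg1, had log2 fold changes of 0.00 ± 0.05 for H3K4me1 and 0.15 ± 0.04 for H3K4me2 (limma adjusted p = 0.971 and 0.081), so the higher H3K4me1 mean over Snhg1 in FC/FC cells did not extend to the longer window of Slc3a2. Zbtb37, beside Gas5, had 0.14 ± 0.07 for H3K4me1 and 0.12 ± 0.05 for H3K4me2 (adjusted p = 0.219 and 0.178). Rab42, upstream of Snhg12, had 1.41 ± 0.139 RPKM of H3K4me3 in FC/FC cells and 1.16 ± 0.126 RPKM in F/F cells (limma adjusted p = 0.99).

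Over all 18 libraries, the genes with the profile most like each member were found by the root mean square difference in log2(RPKM + 0.1) among 12165 other genes with RPKM above 1 for some mark. They were Ier3 (0.15) and Pfn1 (0.21) for Malat1, Psmc3 (0.09) and Gadd45gip1 (0.11) for Neat1, and Higd2a (0.22) and Hes1 (0.23) for Gas5. For Snhg1 they were 1500012F01Rik (0.19) and Emc6 (0.19), for Snhg5 Srsf2 (0.16) and Snhg10 (0.17), and for Snhg12 U2af1l4 (0.11) and Rpl31 (0.14). Snhg10 is another snoRNA host, and Rpl31 encodes a ribosomal protein.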

How the data were processed

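Per the labels and the study's methods, CASAVA 1.4, BWA 0.7.10 (mm10), and MACS 1.4.2 were used. The authors deposited RPKM for RefSeq transcripts plus 500 bp at either end, and peaks against H3 whose score is a scaled -log10 of the MACS p-value. One transcript per symbol, the longest of at least 250 bp, was kept (23043 of 24286 symbols). RPKM converted to whole reads for 100% of values within 0.01. A gene was tested for a mark if RPKM exceeded 1 in 3 or more libraries, with limma 3.58.1 (R 4.3.3), checked on simulated data. Permutation tests used scipy 1.17.1. Named genes were the members, their nearest starts, contained snoRNA rows, the smallest p in each direction of 4 context lists, of which the text gives the leading ones, and the 2 most similar profiles. Members and lists were chosen with earlier results of these data known. The other 34 samples were not used here.

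The labels do not pair the groups. With FC/FC and F/F libraries matched in numerical order, deviations correlated in all 3 pairs for H3K4me1 (0.282 to 0.545), but not for H3K4me2 (-0.492 to 0.71) or H3K4me3 (-0.219 to 0.716). Alternatives were pseudocounts, filters, scalings, limma-voom, pairing, peak thresholds, and left-out libraries.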

Additional observations from a re-analysis of the deposited data

How the results depend on the processing

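Genes called for H3K4me1 numbered 277 in 1 fit of all 18 libraries, 87 after centring on library medians, 86 after quantile normalization, and 730 with limma-voom, against 0 as reported. For H3K4me2 they numbered 488, 434, 347, and 360 in the same order and 453 without the RPKM filter, against 214, and for H3K4me3 22 in 1 fit of all libraries, against 0. The limma-voom fit took library totals, a choice made after seeing the data, and its version with TMM factors was not run. With a replicate block, in which libraries were matched in numerical order, 1797, 202, and 49 genes were called for H3K4me1, H3K4me2, and H3K4me3, with 1 of the 6 genes (Snhg1, H3K4me1) among them. Leaving out 1 library gave 0 genes for H3K4me1, 0 to 2954 for H3K4me2, and 0 to 2 for H3K4me3, and 0 to 3 of the 6 genes for H3K4me2, the highest of each H3K4me2 count without FC/FC replicate 1. Log2 fold changes turned their direction without passing the test for Neat1 (H3K4me2: -0.0021 with the shortest transcript, -0.0065 centred, -0.033 quantile; H3K4me3: -0.00042 centred, -0.0080 quantile) and for Malat1 (H3K4me1: -0.00061 with limma-voom). With 1 library left out, those that crossed 0 ranged for H3K4me1 from -0.030 to 0.23 (Gas5), -0.036 to 0.051 (Malat1), and -0.10 to 0.024 (Snhg5), and for H3K4me3 from -0.18 to 0.042 (Gas5), -0.092 to 0.047 (Malat1), -0.18 to 0.021 (Snhg1), and -0.0075 to 0.033 (Neat1). Covered lengths without overlap numbered 0 with peaks of score 100 or more, with equal numbers of peaks, and within 2 kb, against 1, and 1 to 5 with a library left out. Widths without overlap numbered 0 to 4 with a library left out, both highest without H3K4me2 FC/FC replicate 1. Balances without overlap numbered 0 to 1 (H3K4me3 to H3K4me1) and 1 to 4 (H3K4me3 to H3K4me2) with a set left out (4 without FC/FC replicate 2 or F/F replicate 1, and 2 without FC/FC replicate 1 or F/F replicate 3), and 0 for H3K4me3 to H3K4me2 when centred. With 1 library fewer, groups separate more readily by construction, and the other causes were not tested. Low read counts limit the H3K4me1 values most, at 115 to 403 reads a library for 5 of the genes.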
